A study of Mus musculus with 30 samples.

Results

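The 10 glycolytic enzyme genes, Hk1, Hk2, Gpi1, Pfkl, Pfkp, Aldoa, Pgk1, Eno1, Pkm and Ldha, were followed in the dorsal pancreas of mouse embryos over 5 daily stages. The members were all probe sets, the groups of short probes that report 1 transcript on an Affymetrix array, whose platform annotation gives 1 gene symbol and that symbol is one of these genes. They came to 15 probe sets for 8 of the 10 genes, among 36701 probe sets and 15964 genes with a probe set of 1 symbol in the series. Gpi1 and Eno1 had no probe set of 1 symbol and were not analysed here. The groups were pancreata at embryonic day 12.5 (e12.5), e13.5, e14.5, e15.5 and e16.5, all from NMRI mice with no allele or treatment named. Dorsal buds of a litter were pooled, total RNA of a pool was labelled in 2 reactions, and each labelled sample went on chips A, B and C of the MG-U74 version 2 set, which gave 30 arrays. The sources used here do not give the number of embryos in a pool.

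Glycolysis splits glucose into pyruvate in the cytosol. Hexokinases and phosphofructokinases spend ATP at its entry and its committed step, and phosphoglycerate kinase and pyruvate kinase return ATP at its end. Lactate dehydrogenase turns pyruvate into lactate and renews the NAD that the pathway needs, and dividing embryonic cells and cells short of oxygen are known for high use of this route. In the developing pancreas these days span the growth of the epithelial bud and the onset of acinar enzyme production.

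Values are log2 expression values that are comparable between the arrays of a chip. The median value of an array ranged from 5.71 to 5.76 for chip A, from 5.26 to 5.31 for chip B and from 3.99 to 4.02 for chip C. The 2 labelling reactions of a pool correlated at 0.9957 to 0.9984 across the probe sets of a chip, with a largest difference of 0.88. Both come from the same RNA, so they show labelling error only, and stage and pool cannot be told apart. Fewer cells of a type and less RNA per cell cannot be told apart in whole buds either. The tissue label was checked on its markers: Cpa1, a pancreatic carboxypeptidase of acinar and early tip cells, averaged 10.75 at e12.5 on chip C, and 13 of 13 measured acinar marker genes rose over the stages.

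Of the glycolysis enzymes, Pkm and Ldha passed the test for a trend over the stages, in opposite directions, and the other 6 measured genes did not. Pkm, which encodes the pyruvate kinase of most tissues other than liver, fell by 0.85 on the log2 scale in its brightest probe set. Ldha, which encodes the lactate dehydrogenase subunit of muscle and of lactate-producing cells, rose by 0.56. The change is the slope of a line through the 5 pool means times 4 days (limma, Benjamini-Hochberg adjusted p under 0.05 over all probe sets of the 3 chips). Of the 15 member probe sets 1 rose, where 10.6% of all probe sets did, and 2 fell, where 13.1% did. Counted by gene, with the brightest probe set for each, 1 of 8 rose and 1 of 8 fell, against 11.9% and 17.0% of all genes. Together 3 of 15 probe sets passed, and 23.7% of all probe sets did. The median change was -0.01 over the 8 genes and 0.02 over all genes. The share of members called was near the background in both directions.

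**Figure D1:**
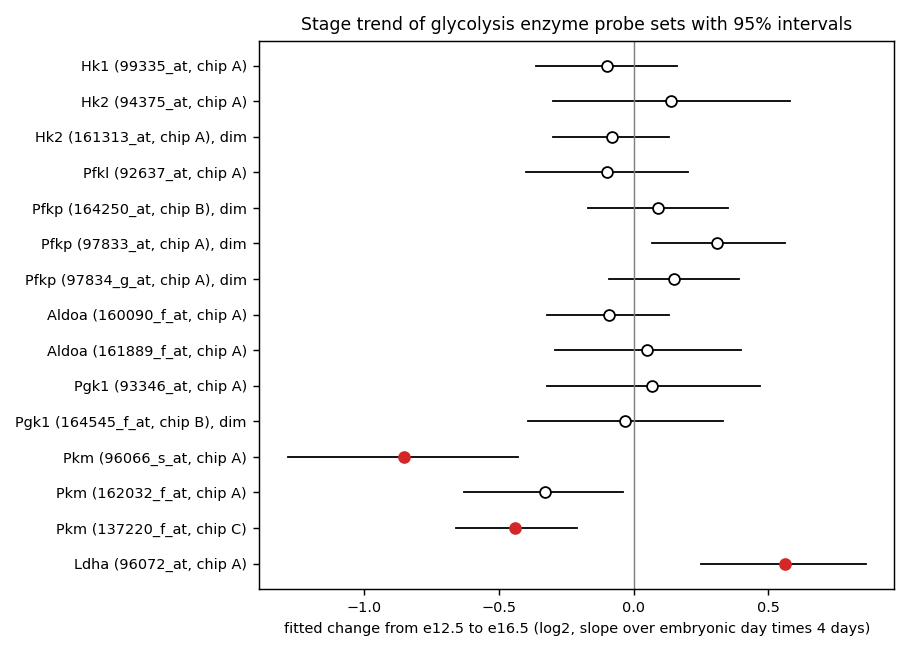
Fitted change from e12.5 to e16.5 (log2, x axis) of each of the 15 glycolysis enzyme probe sets, with 95% intervals as bars, from lines through 5 pool means. Filled points passed the threshold: Pkm 96066_s_at at -0.85, Pkm 137220_f_at at -0.44 and Ldha at 0.56, and names marked dim lie below the chip median at every stage.

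Pkm (GRCm38.p6 chr9:59656576-59679372) was read by 3 probe sets. On 96066_s_at the arrays read 11.17 and 11.15 at e12.5, 11.07 and 11.07 at e13.5, 10.99 and 11.04 at e14.5, 10.82 and 10.77 at e15.5, and 10.23 and 10.23 at e16.5. The level was lower at each later stage, the reactions of one stage never overlapped those of another, and most of the decline came in the last day. The fitted change was -0.85 ± 0.18 (SE, 5 pools; limma adjusted p = 0.0176; 95% interval -1.28 to -0.43), a 1.81-fold lower level. The chip C probe set 137220_f_at read 7.10 and 7.17 at e12.5, 7.04 and 7.13 at e13.5, 6.89 and 6.87 at e14.5, 6.96 and 6.93 at e15.5, and 6.63 and 6.69 at e16.5. Both e16.5 arrays were again below all others, and the change was -0.44 ± 0.10 (limma adjusted p = 0.0162). The third probe set, 162032_f_at, had stage means of 8.67, 8.77, 8.46, 8.42 and 8.43, and its change of -0.33 ± 0.12 did not pass (limma adjusted p = 0.0951). All 3 probe sets thus had negative slopes, of unlike size. The suffixes _s_at and _f_at mark probe sets that can match several related sequences, and the Pkm isoforms they read were not resolved here. The call of 96066_s_at was lost without the e13.5 pool (-0.85, limma adjusted p = 0.0522) and without the e16.5 pool (-0.46, limma adjusted p = 0.0685). That of 137220_f_at was lost without the e12.5 pool (-0.48, limma adjusted p = 0.0622), the e13.5 pool (-0.42, limma adjusted p = 0.0541) or the e16.5 pool (-0.31, limma adjusted p = 0.155).

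Ldha (96072_at, chr7:46842274-46855627) read 10.46 and 10.46 at e12.5, 10.57 and 10.49 at e13.5, 10.52 and 10.56 at e14.5, 10.97 and 10.93 at e15.5, and 10.95 and 10.94 at e16.5. The arrays up to e14.5 lay below those of the last 2 stages with no overlap. The fitted change was 0.56 ± 0.13 (SE, 5 pools; limma adjusted p = 0.0243; 95% interval 0.25 to 0.86), a 1.47-fold higher level, and 95.6% of all probe sets had a smaller or more negative change. With 1 pool left out the slope missed the threshold for e12.5 (0.66, limma adjusted p = 0.0622), for e13.5 (0.55, limma adjusted p = 0.0719) and for e16.5 (0.59, limma adjusted p = 0.0971).

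**Figure D2:**
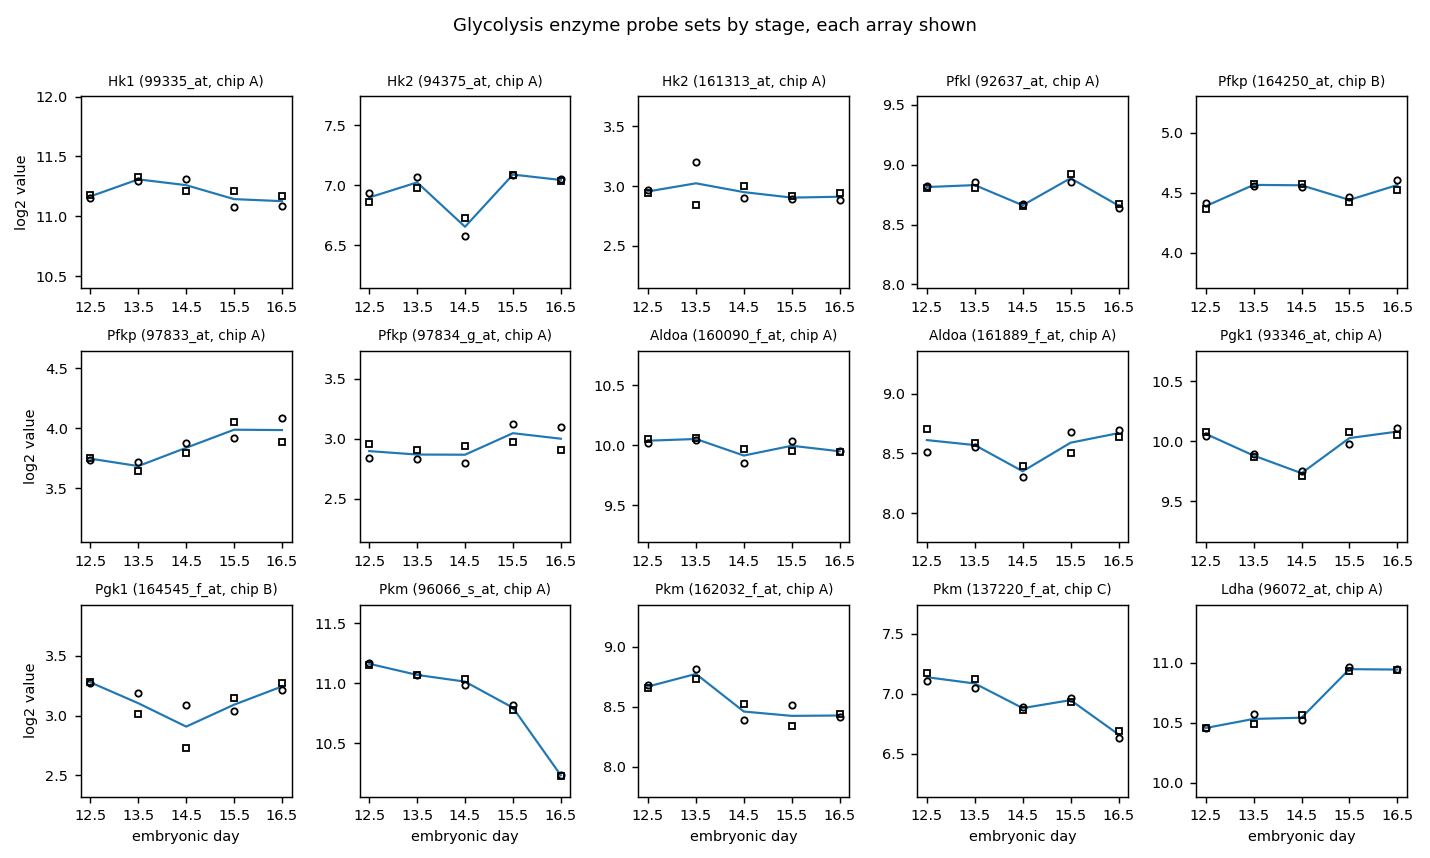
Log2 value (y axis, each panel spanning the same range around the probe set's own mean) against embryonic day (x axis) for the 15 glycolysis enzyme probe sets. Circles and squares are the 2 labelling reactions of a stage and the line joins their means. Pkm 96066_s_at drops to 10.23 at e16.5, Ldha steps up to 10.95 at e15.5, and Hk2 94375_at is lowest at e14.5.

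The promoters of both genes and of Pgk1 are shown because these enzymes are textbook targets of hypoxia-inducible factor, which binds the core letters ACGTG or GCGTG, and because Pkm and Ldha passed the trend. Each sequence is the 250 bases before a RefSeq start site, 5′ to 3′ in the direction of the gene (GRCm38.p6: Ldha chr7:46845554-46845803, plus strand; Pkm chr9:59656326-59656575, plus strand; Pgk1 chrX:106186850-106187099, plus strand). Capitals mark each match to the core letters on either strand.
Ldha: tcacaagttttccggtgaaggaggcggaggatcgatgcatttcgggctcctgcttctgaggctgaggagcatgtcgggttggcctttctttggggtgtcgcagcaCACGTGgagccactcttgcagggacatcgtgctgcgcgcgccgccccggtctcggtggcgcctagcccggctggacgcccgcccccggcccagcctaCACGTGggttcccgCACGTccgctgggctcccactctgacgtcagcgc
Pkm: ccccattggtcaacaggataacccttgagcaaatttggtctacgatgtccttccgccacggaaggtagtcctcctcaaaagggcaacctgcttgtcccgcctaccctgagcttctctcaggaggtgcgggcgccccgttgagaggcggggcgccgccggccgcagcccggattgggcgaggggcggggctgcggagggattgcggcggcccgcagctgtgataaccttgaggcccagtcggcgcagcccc
Pgk1: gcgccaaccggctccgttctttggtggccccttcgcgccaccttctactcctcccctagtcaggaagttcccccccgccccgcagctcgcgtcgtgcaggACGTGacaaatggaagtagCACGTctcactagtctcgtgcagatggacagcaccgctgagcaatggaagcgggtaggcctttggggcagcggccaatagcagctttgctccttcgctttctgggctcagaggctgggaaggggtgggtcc
The Ldha window held 5 matches, of which 4 come from 2 copies of the E-box CACGTG, a palindrome that reads ACGTG on both strands. The Pgk1 window held 2 matches and the Pkm window 0. A further annotated Ldha start and a further Pkm start had 1 match each. Members that did not pass held matches as well, with 3 for Pfkp, 3 and 0 for the 2 starts of Hk1, 2 for Hk2, 1 for Pfkl, and 1, 1 and 0 for the 3 starts of Aldoa. Of 32851 promoter windows of this length, 38.6% held ACGTG or GCGTG, 16.6% held ACGTG, 28.2% held GCGTG and 6.02% held CACGTG. A match is a description of the letters and does not show that a factor binds there.

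At the entry of the pathway neither hexokinase passed the stage trend. Hk1 (99335_at, chr10:62268855-62379920), the hexokinase of most tissues, lay between 11.08 and 11.33 on its 10 arrays, with stage means of 11.17, 11.31, 11.26, 11.14 and 11.13. Its change was -0.10 ± 0.11 (limma adjusted p = 0.541; 95% interval -0.36 to 0.16). Hk2 (94375_at, chr6:82725025-82774454), the hexokinase that insulin and low oxygen are known to induce, read 6.93 and 6.86 at e12.5, 7.07 and 6.98 at e13.5, 6.58 and 6.73 at e14.5, 7.09 and 7.09 at e15.5, and 7.05 and 7.04 at e16.5. The e14.5 arrays were below all others, and the slope was 0.14 ± 0.18 (limma adjusted p = 0.602; 95% interval -0.30 to 0.58). The other Hk2 probe set, 161313_at, lay between 2.84 and 3.20, below the chip median at all 5 stages, and showed no such low value.

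The phosphofructokinases, which catalyse the committed step, did not pass either. Pfkl (92637_at, chr10:77986947-78009807), the liver-type subunit, read 8.82 and 8.81 at e12.5, 8.85 and 8.80 at e13.5, 8.67 and 8.65 at e14.5, 8.86 and 8.92 at e15.5, and 8.64 and 8.68 at e16.5. The e14.5 and e16.5 arrays lay below the arrays of the other stages, and the slope was -0.10 ± 0.13 (limma adjusted p = 0.592; 95% interval -0.40 to 0.20). Pfkp (chr13:6579874-6649060), the platelet-type subunit, was dim on its 3 probe sets, below the chip median at every stage. Its probe set 97833_at had stage means of 3.75, 3.69, 3.84, 3.99 and 3.99 and a change of 0.31 ± 0.10 that missed the threshold (limma adjusted p = 0.0699). The others, 164250_at and 97834_g_at, changed by 0.09 ± 0.11 (limma adjusted p = 0.584) and 0.15 ± 0.10 (limma adjusted p = 0.3). Without one e16.5 reaction 97833_at passed (0.39, limma adjusted p = 0.0397).

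In the middle of the pathway Aldoa, the aldolase that splits the fructose bisphosphate, and Pgk1, the kinase of the first ATP-yielding step, also gave flat slopes. The 2 Aldoa probe sets (chr7:126795234-126800994) had ranges of 9.86 to 10.06 for 160090_f_at and 8.31 to 8.71 for 161889_f_at. Their changes were -0.09 ± 0.09 (limma adjusted p = 0.505) and 0.05 ± 0.14 (limma adjusted p = 0.81). Pgk1 (93346_at, chrX:106187100-106203699) read 10.04 and 10.08 at e12.5, 9.89 and 9.87 at e13.5, 9.75 and 9.71 at e14.5, 9.97 and 10.08 at e15.5, and 10.11 and 10.05 at e16.5. Its level was lowest at e14.5 and alike at both ends, with no overlap between the e14.5 arrays and the others, and the slope was 0.07 ± 0.16 (limma adjusted p = 0.773; 95% interval -0.32 to 0.47). The dim probe set 164545_f_at also had its lowest stage mean at e14.5 (3.28, 3.10, 2.91, 3.09 and 3.24).

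Departures from a straight line were tested with a quadratic term, given as the fitted height of the ends above the middle in log2. It passed for 0 of the 15 member probe sets by limma with adjusted p, where 0.507% of all probe sets passed. The largest in size among members were Pgk1 93346_at (0.26 ± 0.09, limma adjusted p = 0.285), Pgk1 164545_f_at (0.29 ± 0.09, limma adjusted p = 0.193) and Pkm 96066_s_at (-0.32 ± 0.08, limma adjusted p = 0.17). The Pgk1 probe sets read the same gene in the same pools. As a description made after the values were seen, the e14.5 mean was below the average of its neighbouring stages in 11 of 15 member probe sets (73.3%), with a median difference of -0.14. Over all probe sets the share was 47.1% and the median 0.01. For members on chip A above the chip median at every stage it was 7 of 9, against 50.0% of the chip A probe sets above the median on average. The 11 probe sets belong to 7 genes and the stage is 1 pool, so they are not separate observations. They include probe sets without a low at e14.5. From e13.5 to e15.5 Ldha read 10.53, 10.54 and 10.95, a later step up, and Pkm 162032_f_at 8.77, 8.46 and 8.42, a fall. For Hk2 161313_at the difference was -0.01.

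In the comparison of e16.5 with e12.5 on all arrays, 0 of the 15 passed an adjusted p under 0.05 with at least a 2-fold change by limma, where 4.46% of all probe sets did. Without the fold minimum 3 were higher (Ldha by 0.49, Pfkp 97833_at by 0.24 and 164250_at by 0.18), where 26.4% of all probe sets were. A further 4 were lower (all 3 Pkm probe sets and Pfkl, at -0.15), where 23.4% were. This fit takes its spread from labelling reactions alone, so it measures less than the spread between pools. Pkm 96066_s_at, at 10.23 in e16.5 buds against 11.16 in e12.5 buds, differed by -0.93 ± 0.06 (limma adjusted p = 9.36e-08), and Ldha, at 10.94 in e16.5 buds against 10.46 in e12.5 buds, by 0.49 ± 0.06 (limma adjusted p = 2.92e-05).

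Day by day, 0 member probe sets passed with the 2-fold minimum in any of the 4 steps, where 0.128%, 0.131%, 0.365% and 0.33% of all probe sets did from the first step to the last. At an adjusted p under 0.05 alone, by limma, 0 passed for e13.5 against e12.5, where 5.59% of all probe sets were higher and 5.64% lower. For e14.5 against e13.5, 2 were lower (Hk2 94375_at, at -0.37, and Pkm 162032_f_at, at -0.31), where 1.81% were lower, and 0 were higher, where 1.35% were. For e15.5 against e14.5, 4 were higher, where 4.94% were: Hk2 by 0.44, Ldha by 0.41, Pgk1 by 0.29 and Pfkl by 0.23. In the same step 1 was lower, Pkm 96066_s_at at -0.22, where 5.74% were lower. For e16.5 against e15.5, 3 were lower, where 12.2% were: Pkm 96066_s_at at -0.56, Pkm 137220_f_at at -0.29 and Pfkl at -0.23. In that step 0 were higher, where 8.31% were. The Ldha step fell between e14.5 and e15.5, and the largest step of Pkm 96066_s_at and 137220_f_at between e15.5 and e16.5. Pkm 162032_f_at had its largest step between e13.5 and e14.5 and a difference of 0.00 between e15.5 and e16.5.

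The genes whose 5 stage means ran closest to Pkm 96066_s_at, each centred on its own mean, were sought among 14236 probe sets above their chip median at every stage. They were Eftud2, a spliceosome GTPase, with a root mean square difference of 0.024, Cdk2, a kinase of the cell cycle (0.026), Hdac1, a histone deacetylase (0.028), Fkbp4, a co-chaperone (0.028), and Mcm2, a subunit of the replicative helicase (0.030). Their changes ran from -0.91 for Cdk2 to -0.79 for Fkbp4. With 5 stages, many profiles of one shape lie close together.

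**Figure D3:**
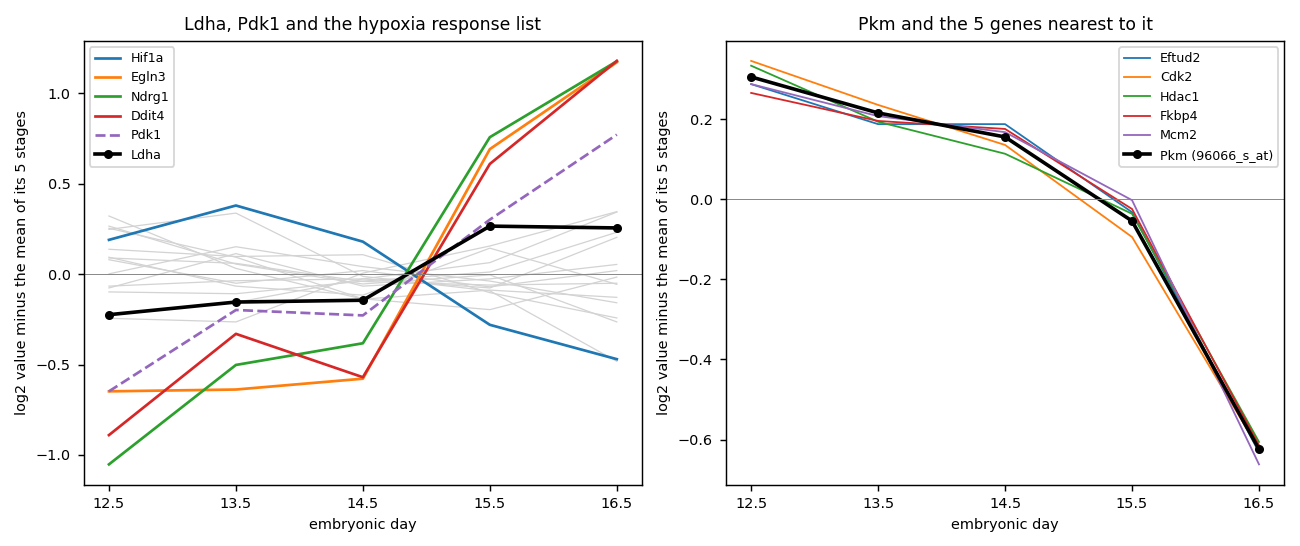
Stage means as log2 value minus the probe set's own mean over 5 stages (y axis) against embryonic day (x axis). Left, Ldha in black with Pdk1 dashed and the hypoxia response list, of which the 4 genes named in the key are coloured and the others grey; right, Pkm 96066_s_at in black with the 5 nearest genes. Ldha, Egln3, Ndrg1 and Ddit4 are higher at e15.5 than at e14.5, while Hif1a is lower.

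Among the other glycolysis enzymes 3 of 15 measured genes rose, 2 fell and 10 did not pass, with a median change of 0.04. Aldoc, the brain-type aldolase, rose by 0.99 ± 0.12 (limma adjusted p = 0.0027), with stage means of 6.16, 6.43, 6.59, 7.05 and 7.09, and its second probe set rose too (0.44). Bpgm, which makes bisphosphoglycerate in red cells, rose by 0.72, and the muscle-type mutase Pgam2, dim on the array, by 0.56. Ldhb, the heart-type lactate dehydrogenase subunit, fell by 0.71 (limma adjusted p = 0.0197), with means of 6.82, 6.57, 6.40, 6.03 and 6.21, so the 2 lactate dehydrogenase subunits had slopes of opposite sign. A dim second Ldhb probe set had a change of 0.25 that did not pass. Pfkm, the muscle-type phosphofructokinase, fell by 0.40; it is outside the rule for named genes and was picked on its value. Aldoc passed with each of the 5 pools left out in turn. Ldhb did not pass without e12.5 (limma adjusted p = 0.123) or e13.5 (limma adjusted p = 0.0559), and Pfkm without e12.5 (0.134), e13.5 (0.0645) or e16.5 (0.0606). Bpgm did not pass without e13.5 (limma adjusted p = 0.0505), e15.5 (0.0727) or e16.5 (0.183), nor Pgam2 without e13.5 (0.0999), e15.5 (0.066) or e16.5 (0.288). The change of Bpgm was 1.11 without e12.5 and that of Pgam2 0.29 without e16.5.

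Of 9 glucose and lactate transport genes 3 rose and 1 fell. Slc2a2, the low-affinity glucose transporter of beta and liver cells, fell by 0.80 ± 0.16 (limma adjusted p = 0.0162), with means of 5.70, 5.55, 5.07, 4.94 and 5.0. These means lay below the chip median at every stage. Slc2a1, the widespread glucose transporter, changed by -0.28 ± 0.10 and did not pass (limma adjusted p = 0.0886). Bsg, the chaperone of the lactate transporters, rose by 0.37 and the fructose transporter Slc2a5 by 0.48. The other Slc2a5 probe sets changed by 0.24 and -0.21 and did not pass. The monocarboxylate transporter Slc16a7, dim on the array, rose by 0.43, and its second probe set by 0.78. Slc16a1 and Slc16a3, the main lactate carriers, changed by -0.06 and 0.08 and did not pass. Slc16a1 was dim, with stage means from 3.10 to 3.26, so its flat slope says little about its level. Slc2a2 did not pass without e12.5 (limma adjusted p = 0.0966) or e13.5 (0.0507), Slc2a5 without e16.5 (0.0978), Slc16a7 without e12.5 (change 0.25, limma adjusted p = 0.234) or e16.5 (0.125), and Bsg without e12.5 (0.111), e13.5 (0.0827) or e16.5 (0.086).

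Of 9 regulators of glycolytic flux 3 rose and 0 fell by limma. Pdk1, a kinase that shuts off pyruvate dehydrogenase and so keeps pyruvate from the citrate cycle, rose by 1.33 ± 0.16 (limma adjusted p = 0.00301), 2.52-fold. Its stage means were 6.48, 6.93, 6.90, 7.43 and 7.90, and it passed with any pool left out. Pdk2, of the same family, rose by 0.65 ± 0.11 (limma adjusted p = 0.00563) and missed the threshold without e16.5 (limma adjusted p = 0.0563). Ppp1r3c, which targets protein phosphatase to glycogen, rose by 0.42 and missed it without e13.5 (0.0557) or e16.5 (0.131). Pdk3 and Pdk4 changed by 0.31 and 0.28 and did not pass, nor did Pfkfb3 and Pfkfb4. These last enzymes set the level of a phosphofructokinase activator, a fructose bisphosphate other than the one that aldolase splits. Pfkfb2, of the same family, changed by 0.30 on its brightest probe set and did not pass (limma adjusted p = 0.0798), while a dim probe set on chip C rose by 0.48 (limma adjusted p = 0.0172) and the mean of its 3 probe sets by 0.28 (limma adjusted p = 0.0402).

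Pyruvate entry and the citrate cycle gave 3 genes up and 1 down of 23. Suclg1, a subunit of succinyl-CoA ligase, rose by 1.04 ± 0.15 (limma adjusted p = 0.00543), with means of 8.43, 8.53, 8.64, 9.19 and 9.40, and passed with any pool left out. Idh2 rose by 0.51 and Pdhx by 0.39, and Idh3b fell by 0.47, a set of calls that each ended with at least 1 pool left out: Idh2 without e12.5 (limma adjusted p = 0.145), e13.5 (0.0925) or e14.5 (0.0532), Pdhx without e12.5 (0.157) or e16.5 (0.242), and Idh3b without e12.5 (0.115), e13.5 (0.0684) or e16.5 (change -0.31, 0.227). The called Pdhx probe set was dim, below the chip median at every stage. The second probe sets of these genes changed by 0.31 for Idh2, -0.07 for Pdhx and 0.22 for Idh3b and did not pass. Pdha1, the catalytic pyruvate dehydrogenase subunit that the Pdk kinases act on, changed by 0.37 and did not pass (limma adjusted p = 0.0722).

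Gluconeogenesis was the metabolic list with the highest median, 0.54 over 8 genes, of which 4 rose and 0 fell by limma. They were Fbp1, which reverses the phosphofructokinase step (1.21 ± 0.30, limma adjusted p = 0.0318), G6pc2, the glucose-6-phosphatase of islets (1.07 ± 0.15, limma adjusted p = 0.00427), Pcx, pyruvate carboxylase (0.91), and G6pc3 (0.48). Of the 8 genes 2 lay above the chip median at every stage, and of the rising ones G6pc3 alone did. Fbp1 lay below it up to e15.5 and Pcx up to e14.5. G6pc2 means were 3.20, 3.22, 3.52, 4.03 and 4.14, below the chip median throughout, and it passed with any pool left out. Without e16.5 the change of Fbp1 was 0.51 (limma adjusted p = 0.153) and that of Pcx 0.42 (0.171), so most of the size of both rested on that pool. Fbp1 also missed the threshold without e12.5 (0.0723) or e13.5 (0.0579), and Pcx without e13.5 (0.0803). G6pc3 did not pass without e12.5 (0.167), e13.5 (0.11), e14.5 (0.0614) or e15.5 (0.0547). The other probe sets of Pcx (changes of 0.28 and 0.06) and of G6pc3 (0.17) did not pass. Of 6 pentose phosphate genes 1 rose, Taldo1, the transaldolase, by 0.89 ± 0.17 (limma adjusted p = 0.0126), and it did not pass without e16.5 (0.57, limma adjusted p = 0.0713). Of 8 genes of the glycerol and serine branches 2 rose: Psph, phosphoserine phosphatase, by 0.77, a call lost without e12.5 (limma adjusted p = 0.0631), e13.5 (0.113) or e16.5 (0.108), and Gpd1l by 0.65, lost without e13.5 (0.0751) or e16.5 (0.128). Of 9 glycogen metabolism genes 0 passed by limma on their brightest probe set, and 2 rose without the e12.5 pool, 2 without e14.5 and 1 without e15.5. Pygl, the liver glycogen phosphorylase, changed by 0.62 ± 0.20 (limma adjusted p = 0.0573). Pygb, the brain glycogen phosphorylase, changed by -0.19 on its brightest probe set and did not pass (limma adjusted p = 0.161), while its probe set on chip A fell by 0.70 ± 0.09 (limma adjusted p = 0.00319).

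**Figure D4:**
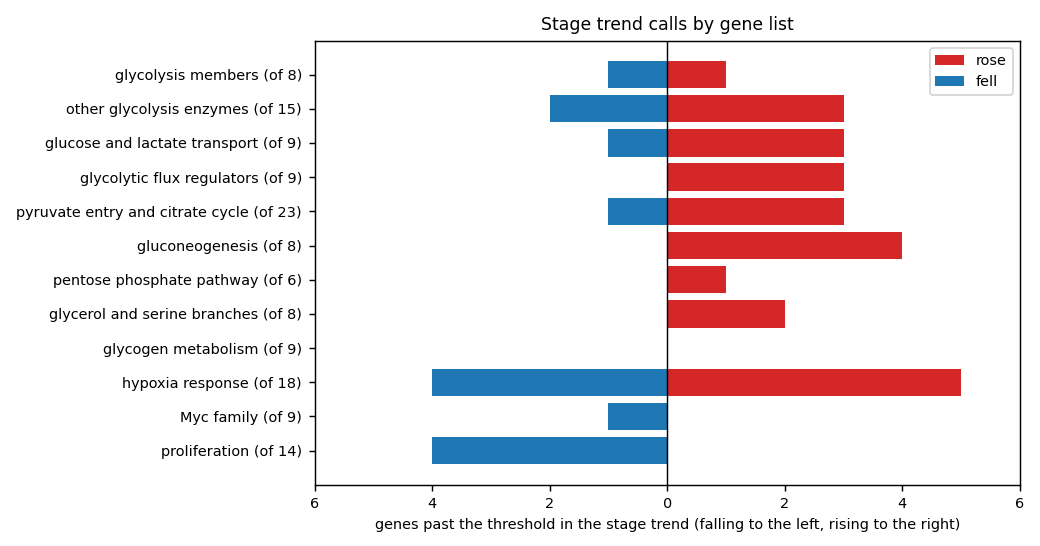
Number of genes past the threshold of the stage trend (x axis) in each list (y axis, number of measured genes in brackets), with falling genes to the left of 0 and rising genes to the right. The glycolysis members have 1 on each side, gluconeogenesis has 4 rising and 0 falling, and proliferation 0 rising and 4 falling.

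The hypoxia response list holds genes of the oxygen-sensing pathway that is known to act on glycolysis. Of its 18 genes 5 rose and 4 fell, with a median of -0.05. Ndrg1, a stress-induced gene, rose by 2.29 ± 0.23 (limma adjusted p = 0.00166), with means of 7.33, 7.88, 8.0, 9.14 and 9.56, and its second probe set rose by 2.41. Ddit4, an inhibitor of mTOR signalling, rose by 2.03 ± 0.33 (limma adjusted p = 0.00744), and Egln3, an oxygen-sensing prolyl hydroxylase, by 1.98 ± 0.34 (limma adjusted p = 0.00624). Both had their largest daily difference between e14.5 and e15.5, with Ddit4 at 7.36 at e15.5 against 6.18 at e14.5 and Egln3 at 7.52 at e15.5 against 6.25 at e14.5. Hif1a, the regulated subunit of the factor, fell by 0.80 ± 0.19 (limma adjusted p = 0.0273), with means of 9.25, 9.44, 9.24, 8.78 and 8.59, and its second probe set fell by 0.87. Named after their values were seen, Car9 (0.64) and P4ha2 (0.54) rose, and Epas1 (-0.39), Arnt (-0.44) and Kdm3a (-0.76) fell, while Vegfa (-0.20) and Bnip3 (0.05) did not pass. The other probe sets of P4ha2 (0.24), Epas1 (-0.09), Kdm3a (0.05) and Arnt (-0.18, -0.23 and 0.02) did not pass. Vhl changed by -0.41 on its brightest probe set and did not pass (limma adjusted p = 0.054). Its other probe sets changed by -0.58 and -0.51, which passed, and by -0.27, which did not. Egln1 changed by -0.03 on its brightest probe set and did not pass, while a dim probe set rose by 0.55 and the others (-0.11 and 0.05) did not pass. Ndrg1 and Car9 passed with any pool left out. Without e16.5 the list had 2 rising and 1 falling, and Ddit4 (limma adjusted p = 0.0686), Egln3 (0.0646), P4ha2 (0.0789), Kdm3a (0.0991), Epas1 (0.272), Arnt (0.204) and Hif1a (0.182) did not pass. The change of Hif1a was -1.21 without e12.5. Hif1a also missed the threshold without e13.5 (0.0644) or e15.5 (0.0638), Epas1 without e12.5 (0.0571), e13.5 (0.0783) or e15.5 (0.0559), and Arnt without e12.5 (0.164) or after a further quantile normalization (-0.22, limma adjusted p = 0.14). The Myc family list holds the Myc factors, known to raise glycolytic genes, and also Max and Max partners that are not Myc factors. Of its 9 genes 1 passed: Mycn fell by 1.82 ± 0.22 (limma adjusted p = 0.00275), with means of 5.95, 6.05, 5.26, 4.74 and 4.33. Mycn passed with any pool left out. A dim second Mycn probe set had a change of 0.15 that did not pass. Myc changed by -0.03 ± 0.37 and did not pass.

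Markers of cell composition moved over the same days as Pkm and Ldha, and their part in the result was not tested. Of 14 proliferation genes 4 fell (Pcna by 1.18, Bub1 by 1.16, Mcm3 by 0.96 and Mcm2 by 0.85), with a median change of -0.73. Their count was 0 without e13.5 and 1 without e16.5, and 8 without e15.5. Without e16.5 the changes shrank to -0.59 for Pcna, -0.56 for Bub1, -0.42 for Mcm3 and -0.37 for Mcm2. Over the metabolic, hypoxia, Myc and proliferation lists together 37 genes passed and 91 did not. Of all genes 11.9% rose and 17.0% fell, so the share passing in these lists was near that of all genes. Of the 37 genes 7 passed with each pool left out in turn, and 10 of the 91 had another probe set that passed. The mean of the proliferation list was 7.89, 7.81, 7.84, 7.74 and 7.13 over the stages. Its low value was at e16.5, where Pkm 96066_s_at was lowest as well. Of 12 mesenchyme markers 6 fell and 1 rose, with list means of 8.20, 8.09, 7.95, 7.57 and 7.47. The 13 acinar markers averaged 6.71, 7.82, 8.88, 10.60 and 11.78. Of 11 endocrine markers 4 rose and 2 fell, of 8 epithelial markers 4 rose and 1 fell, and of 10 red cell markers 2 rose and 3 fell. Of 8 endothelial markers 1 rose and 3 fell, of 8 neural and Schwann markers 1 rose and 5 fell, of 9 leukocyte markers 1 rose and 2 fell, and of 9 muscle markers 1 rose. Leukocyte list means were 5.98, 5.93, 5.65, 5.69 and 6.66, lowest at e14.5. The lists of glucose and lactate transport (5.93), glycogen metabolism (6.06) and hypoxia response (6.75) also had their lowest mean at e14.5. Hk2 94375_at and both Pgk1 probe sets were lowest at that stage too, and a link to any list was not tested. C1qb, a complement gene of macrophages, fell by 0.92 on its brightest probe set (limma adjusted p = 0.0317), while its other probe set rose by 1.60 (limma adjusted p = 0.0455). Several of these counts moved with 1 pool: leukocyte calls numbered 0 without e13.5 or e15.5, while 0 fell without e12.5 and 0 rose and 3 fell without e16.5. Muscle markers rising numbered 3 without e12.5 and 0 without e13.5 or e16.5. Endothelial markers falling numbered 1 without e12.5, e13.5 or e15.5, and red cell markers rising 1 without e14.5 or e15.5 and 0 without e16.5. Endocrine markers falling numbered 4 without e12.5 and 0 without e16.5, epithelial markers falling 0 without e16.5, neural and Schwann markers rising 0 without e12.5, e13.5 or e14.5, and mesenchyme markers rising 2 without e14.5.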

How the data were processed

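Log2 expression values of 30 arrays were deposited by the authors, and per the submitters' processing notes RMA made them. RMA corrects background, quantile-normalizes arrays and combines a probe set's probes, so differences in overall brightness between arrays are removed. The log base was inferred from the values' range. Software versions, detection calls and array depth are not given in the sources used here, and the number of arrays limits the precision. Each chip was treated as normalized on its own.

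Gene symbols came from GEO's platform annotation and were brought up to date by Entrez identifier with RefSeq's GRCm38.p6 gene table. This gave 1 symbol to 29131 of 36701 probe sets and several symbols to 724, and left 6846 unnamed. For counts by gene, the brightest probe set on average stood for the gene. Tests used limma 3.58.1 in R 4.3.3: a line, and a line with a quadratic term, over the 5 pool means of each chip, and stage as a factor over its 10 arrays (calls at an adjusted p under 0.05 and at least 2-fold). P-values were adjusted by Benjamini-Hochberg over the 3 chips together. The factor fit holds labelling spread only. The fits were tested on simulated data. Reaction numbers do not pair samples: deviations of same-numbered arrays correlated at -0.18 to 0.11.

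All members were named, with up to 4 genes per other list of the largest passing change with the same sign in both reactions (the largest where none passed), and the 5 genes nearest in profile to the member of the largest change. Members and lists were chosen with earlier results of these data known. Alternatives were other scalings, a brightness filter, an intensity trend, adjustment within chips, treatment of reactions, fold minimums, and leaving out each reaction and each pool.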

Additional observations from a re-analysis of the deposited data

How the results depend on the processing

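No called value changed direction under an alternative. The stage trend called 3886 probe sets rising and 4825 falling, of them 1 and 2 members. With the replicate block on 10 arrays it called 7580 and 7313, with 2 members rising, and with 10 arrays not averaged 7957 and 7538, again with 2 members rising; both treat reactions of 1 pool as separate. In both, Pfkp 97833_at (0.31, limma adjusted p = 0.0136 with the block) and Pkm 162032_f_at (-0.33, limma adjusted p = 0.0197 with the block) passed, and Pkm 162032_f_at passed with the pool as a random block as well (limma adjusted p = 0.0485). Bright probe sets alone, those above the chip median on average, gave 2143 rising. Fewer probe sets were tested there, so this count is not comparable with 3886. A 1.5-fold minimum left 1365 rising and 2868 falling, with 0 and 1 members, and a 2-fold minimum 525 and 981, with 0 and 0 members. Leaving out a reaction or a pool gave 1275 to 4035 rising and 2278 to 4999 falling, the fewest without the e16.5 pool, and 0 to 2 members rising and 0 to 2 falling.

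Curvature calls with the ends above the middle numbered 78, 12 among bright probe sets, and 13 to 101 with a reaction left out. Those with the middle above the ends numbered 108, 64 after median centring, 33 among bright probe sets, and 8 to 151 with a reaction left out; the low values 13 and 8 came without e15.5 replicate 1. For e16.5 against e12.5, members called higher and lower were 0 and 0 with the 2-fold minimum, 1 lower at 1.5-fold, and 3 and 4 with no fold minimum, while all probe sets were 527 and 1111, 1598 and 3303, and 9687 and 8594. With no fold minimum 2 members were lower for e14.5 against e13.5, 4 higher and 1 lower for e15.5 against e14.5, and 3 lower for e16.5 against e15.5.

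Leaving out 1 reaction ended the call of Pgam2 (without e12.5 replicate 1, e14.5 replicate 1 or e15.5 replicate 2, limma adjusted p = 0.0558, 0.0745 and 0.0755), Psph (without e14.5 replicate 2, e15.5 replicate 2 or e16.5 replicate 2, 0.0526, 0.0567 and 0.0526), G6pc3 (without e15.5 replicate 2 or e16.5 replicate 2, 0.0565 and 0.059), Pdhx (without e13.5 replicate 1 or e16.5 replicate 1, 0.109 and 0.0836), Ppp1r3c (without e16.5 replicate 1, 0.0681), Epas1 (without e14.5 replicate 1, 0.051) and Idh3b (without e15.5 replicate 1, 0.0729). With an intensity trend Bsg did not pass (0.0548), and with quantile normalization again Slc16a7 (0.0634) and Arnt (-0.22, 0.14) did not. The cause was not tested. Pygl, not called, passed in the 10-array settings, within its chip, with an intensity trend and with some reactions or pools left out. The background level of the arrays is unknown, which limits what dim probe sets, such as those of Pfkp and Slc16a1, can show.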
